A study of Mus musculus with 8 samples.

Results

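Transcripts of 10 genes were followed in ID8 IP2 cells with forced Notch3 signalling: 7 drug efflux transporters of the ATP-binding cassette (ABC) superfamily (Abcb1a, Abcb1b, Abcc1, Abcc3, Abcc4, Abcc5 and Abcg2) and the 3 retinaldehyde dehydrogenases of the Aldh1a family (Aldh1a1, Aldh1a2 and Aldh1a3). They were taken by symbol from the 23284 genes listed in the count tables, all 10 were listed, and all 10 passed the expression filter. ID8 IP2 is a subline of the mouse ovarian surface epithelial line ID8, obtained by passage through C57BL/6 mice and cultured here in DMEM with 10% FBS, ITS supplement and penicillin-streptomycin. Notch3IC lines carry a lentiviral pCCL insert that encodes the Notch3 intracellular domain with an HA tag, and GFP from an IRES. Control lines received pCCL with no insert. An independent infection gave each of Sets 1 to 4, a set being 1 Control line and its matched Notch3IC line, and polyadenylated RNA of each line gave 1 library, 8 in all. All lines also carried a luciferase-mCherry lentivirus, according to the methods, and testing done afterwards pointed to mycoplasma in all of them. Between 15524262 and 28208072 reads were counted on genes per library.

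ABC efflux transporters are membrane pumps that use ATP to move lipids, conjugates and drugs out of cells, and in ovarian cancer they are studied for their part in resistance to taxanes, anthracyclines and topoisomerase inhibitors. Aldh1a enzymes oxidize retinaldehyde to retinoic acid, the ligand of the nuclear retinoic acid receptors, and Aldh1a activity is a widely used marker of stem-like cells in ovarian and other carcinomas. Notch receptors release an intracellular domain that joins the DNA-binding protein Rbpj, and the Hes and Hey proteins induced in this way are repressors that bind E-box and N-box sequences.

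Of the 10 genes, Aldh1a3 rose in Notch3IC cells, and no efflux transporter was called in either direction. Aldh1a3 transcripts went from 10.9 ± 4.70 normalized counts (mean ± SD, n = 4 libraries) in Control to 152 ± 153 in Notch3IC, and Aldh1a1 transcripts were 4075 ± 1838 in Control and 928 ± 1120 in Notch3IC. The Aldh1a1 difference did not pass the test with condition alone (adjusted p = 0.188, edgeR quasi-likelihood test) and passed it when the matched set was added as a block (adjusted p = 0.0412). Aldh1a2 was not called in either fit. Normalized counts are reads counted on a gene, scaled to the mean library size. A gene was called when its Benjamini-Hochberg adjusted p was below 0.1 over the 12430 genes tested and its log2 fold change was at least 1 in size. By this rule 3.4% of all genes tested were called higher and 0.74% lower with condition alone. With the set as a block these shares were 5.19% and 2.53%. The 10 genes gave 1 call higher and 0 lower with condition alone, and 1 higher and 1 lower with the block. The median log2 fold change of the 10 was -0.17, against -0.01 over all genes tested, with 5 above and 5 below 0. For 7.08% of all genes every Notch3IC library lay above every Control library, and for 3.75% every Notch3IC library lay below. Among the 10 only Aldh1a3 had groups that did not overlap.

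**Figure D1:**
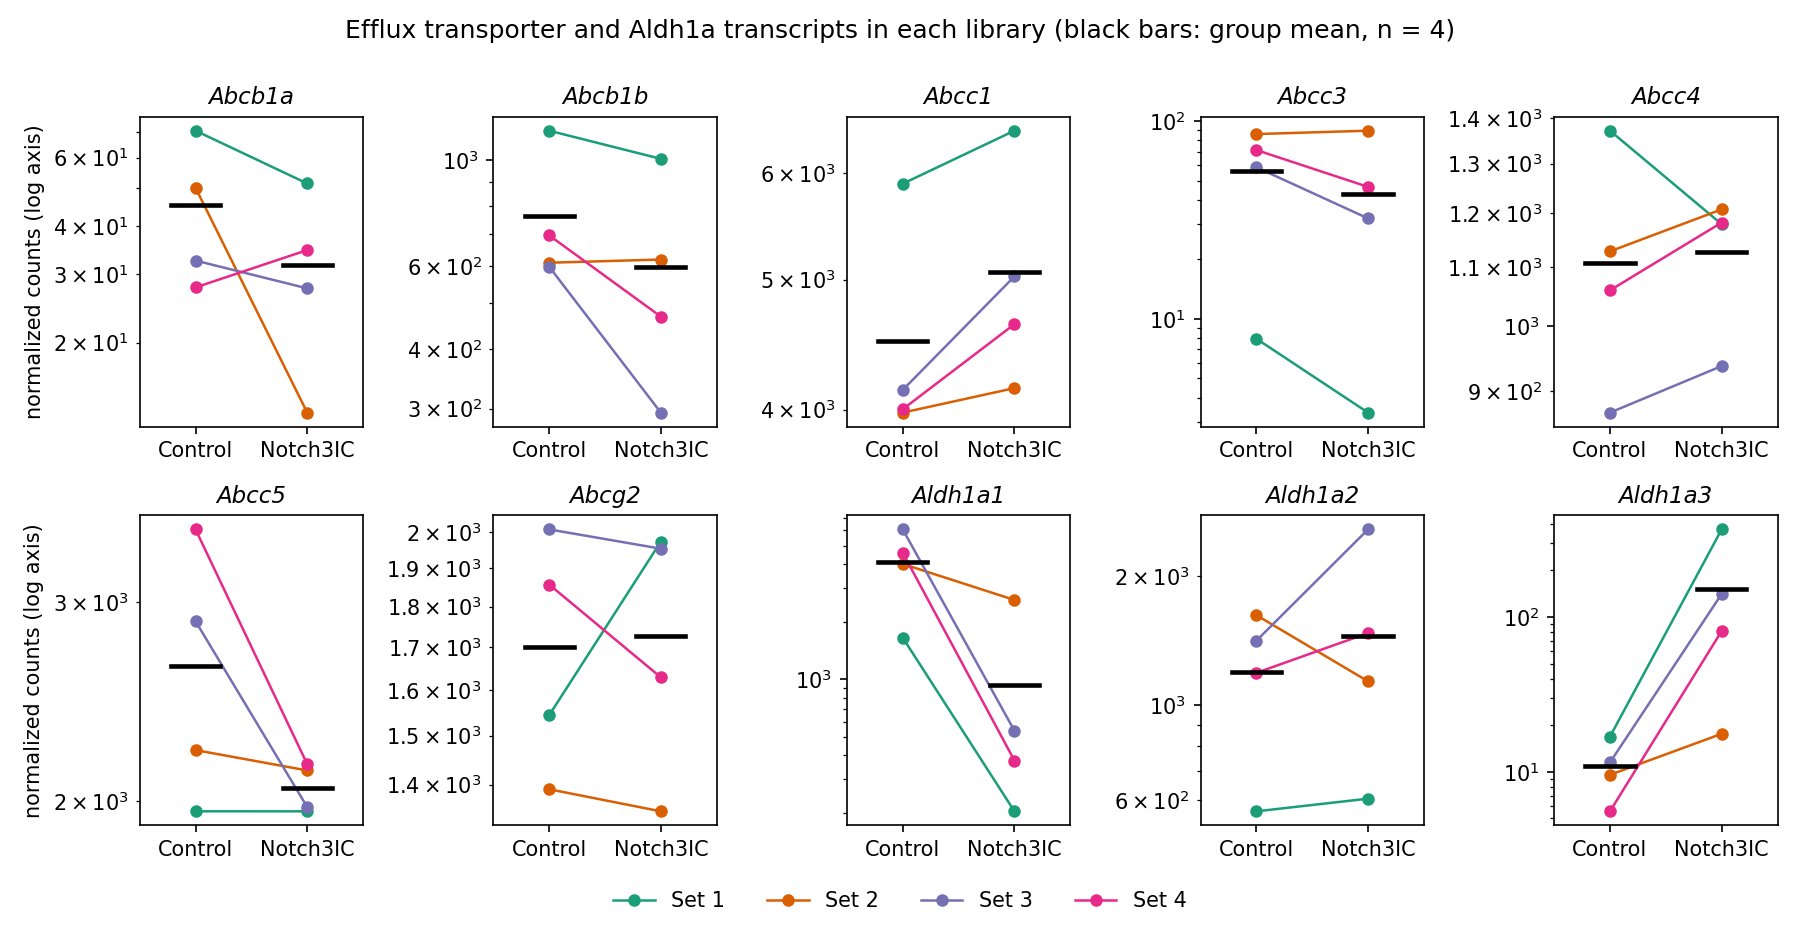
Normalized counts (log axis, a separate range for each gene) of the 10 genes in the Control and Notch3IC library of each set, with a line joining the libraries of a set and black bars at the group means. Aldh1a3 rises and Aldh1a1 goes down in every set, least in Set 2, while the lines of the transporters mostly run flat or cross.

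The manipulation was read first from Notch3 itself, whose counts do not separate the insert from the endogenous gene. Notch3 stood at 38.7, 40.6, 70.8 and 42.0 normalized counts in Control, Sets 1 to 4 in order, against 4322, 467, 9220 and 5842 in Notch3IC. All 4 Notch3IC lines were above all Control lines, and the line of Set 2 carried the least Notch3 transcript of the 4. Within the sets the log2 ratio of Notch3IC to Control was 6.79, 3.51, 7.01 and 7.11. Of its canonical targets, the repressor genes Hey1 and Heyl and the feedback inhibitor Nrarp were called higher with Notch3, and Hes1 was not called (log2 fold change 0.58, adjusted p = 0.388, edgeR quasi-likelihood test). Hey1 too was lowest among Notch3IC lines in Set 2, at 438 normalized counts against 4079, 10642 and 8014 in Sets 1, 3 and 4.

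Promoter sequences of 7 of the 10 genes were matched by symbol in RefSeq (GRCm38.p6), with 11 start sites among them. Abcc1, Abcc3 and Aldh1a3 had no match and were not searched. Each window of 300 bases, from 250 before to 50 after a start, was searched on both strands for the Rbpj core TGGGAA, the E-box CACGTG and the N-box CACNAG, none of which overlapped another in these windows. Of all 32851 promoter windows of this length, 25.6% held the Rbpj core, 7.15% the E-box and 42.5% the N-box. The bases before the start are shown for Aldh1a1, the abundant enzyme that was lower in Notch3IC, and for Abcc5, the transporter whose window held the most of these letters. All are GRCm38.p6, 5′ to 3′ on the strand of the gene, with matches in capitals. Aldh1a1 has 2 starts in RefSeq, and both windows are shown because the counts do not tell which was used: chr19:20492333-20492582, upstream of the GENCODE span of the gene, and chr19:20601718-20601967, inside that span, both on the plus strand. The sequence at the GENCODE start of Aldh1a1 itself lies outside both windows and was not searched. The Abcc5 window is chr16:20426395-20426644 on the minus strand.
Aldh1a1, first start: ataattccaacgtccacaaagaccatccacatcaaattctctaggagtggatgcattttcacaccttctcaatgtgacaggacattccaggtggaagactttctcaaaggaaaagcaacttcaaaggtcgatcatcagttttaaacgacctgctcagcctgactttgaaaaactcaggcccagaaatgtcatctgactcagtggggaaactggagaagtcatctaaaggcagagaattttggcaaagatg
Aldh1a1, inner start: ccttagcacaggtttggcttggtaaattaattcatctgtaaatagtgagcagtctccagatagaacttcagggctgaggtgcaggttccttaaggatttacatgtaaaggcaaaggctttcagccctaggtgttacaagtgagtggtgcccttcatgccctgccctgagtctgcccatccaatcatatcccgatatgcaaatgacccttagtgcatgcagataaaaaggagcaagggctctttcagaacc
Abcc5: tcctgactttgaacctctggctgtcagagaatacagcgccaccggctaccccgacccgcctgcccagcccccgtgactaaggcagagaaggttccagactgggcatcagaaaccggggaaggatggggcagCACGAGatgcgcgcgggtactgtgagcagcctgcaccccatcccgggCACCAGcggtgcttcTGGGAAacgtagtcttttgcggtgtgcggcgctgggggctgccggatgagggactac
In the Abcc5 window the Rbpj core letters began at position -57 from the start and the N-box letters at -119 and -72. Neither of the 2 Aldh1a1 windows held any of the 3 motifs, nor did that of Aldh1a2. The Abcb1a window, which held none either, lies at a RefSeq start upstream of the GENCODE span of that gene, so the sequence at its GENCODE start was not searched. Abcb1b held an N-box at -76, Abcc4 an E-box at -205 of one start and an N-box at -27 of the other, and Abcg2 an N-box at -6 of 1 of its 3 starts. These matches are a description of letters in a window, and binding was not measured.

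Aldh1a1, a cytosolic retinaldehyde dehydrogenase and the isoform most often used as a stem-cell marker, lies on chromosome 19 from 20492715 to 20643465, plus strand (GRCm38, GENCODE M21). It stood at 1647, 4004, 6070 and 4581 normalized counts in Control (Sets 1 to 4, in that order here and for every gene that follows), against 204, 2595, 537 and 375 in Notch3IC. It was lower in the Notch3IC line of all 4 sets. The groups overlapped through a single library, since Notch3IC Set 2 lay above Control Set 1. The log2 ratio within the set was -3.01, -0.63, -3.50 and -3.61 in Sets 1 to 4, so the difference in Set 2 was the smallest, in the set with the smallest Notch3 ratio. With condition alone the log2 fold change was -2.14 (SE 0.79, 4.42-fold lower, adjusted p = 0.188, edgeR quasi-likelihood test), which was not called. With the set as a block it was -2.72 (SE 0.57, adjusted p = 0.0412), which was called. The blocked call was lost without Set 1 (-2.63, adjusted p = 0.148), Set 3 (-2.42, adjusted p = 0.186) or Set 4 (-2.38, adjusted p = 0.196). The call with condition alone turned on Notch3IC Set 2 and on the tool. Without this library the log2 fold change was -3.45 (adjusted p = 0.00660), and DESeq2 called the gene with all 8 libraries (-2.15, adjusted p = 0.0890).

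Aldh1a3, the retinaldehyde dehydrogenase with a restricted pattern in embryonic eye and nasal epithelium, lies on chromosome 7 from 66390890 to 66427517, minus strand. It stood at 16.9, 9.55, 11.5 and 5.55 normalized counts in Control, against 368, 17.6, 141 and 81.1 in Notch3IC. The lowest Notch3IC library, Set 2, was just above the highest Control library, Set 1, and before scaling for library size they held 12 and 17 reads. The log2 ratios within the sets were 4.41, 0.85, 3.56 and 3.78, again least in Set 2. The largest was that of Set 1, whose Notch3 ratio (6.79) was below those of Sets 3 and 4 (7.01 and 7.11). The fitted log2 fold change was 3.80 (SE 0.85, 14.0-fold higher, adjusted p = 0.0497, edgeR quasi-likelihood test), and with the set as a block it was 3.55 (SE 0.51, adjusted p = 0.0262). The Control libraries held 17, 8, 12 and 7 reads, so the Control level rests on few counts. The call was lost when 1 of several libraries was left out, with adjusted p = 0.107, 0.151 and 0.169 without Control Sets 2, 3 and 4 and 0.119 and 0.116 without Notch3IC Sets 3 and 4. The log2 fold change was between 3.57 and 4.01 in these 5 fits. Without Notch3IC Set 1, the library with the most Aldh1a3, it was 2.90 (adjusted p = 0.0836), and without both lines of Set 1 it was 3.19 (adjusted p = 0.0880). The call was also lost without both lines of Set 3 (3.87, adjusted p = 0.327) or Set 4 (3.78, adjusted p = 0.371). With the block it was lost without Set 1 (3.05, adjusted p = 0.126), Set 3 (3.47, adjusted p = 0.132) or Set 4 (3.44, adjusted p = 0.121).

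Aldh1a2, the retinaldehyde dehydrogenase that makes retinoic acid in the embryonic mesoderm and in mesothelium, lies on chromosome 9 from 71215789 to 71296243, plus strand. It stood at 564, 1621, 1413 and 1188 normalized counts in Control and 604, 1136, 2572 and 1473 in Notch3IC. The groups overlapped, and the Notch3IC line was the higher in Sets 1, 3 and 4 and the lower in Set 2. Its log2 fold change was 0.27 (SE 0.45, adjusted p = 0.810, edgeR quasi-likelihood test), with a 95% interval from -0.75 to 1.30. The sign rested on Set 3: without its Notch3IC library the value was -0.16 (adjusted p = 0.939).

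**Figure D2:**
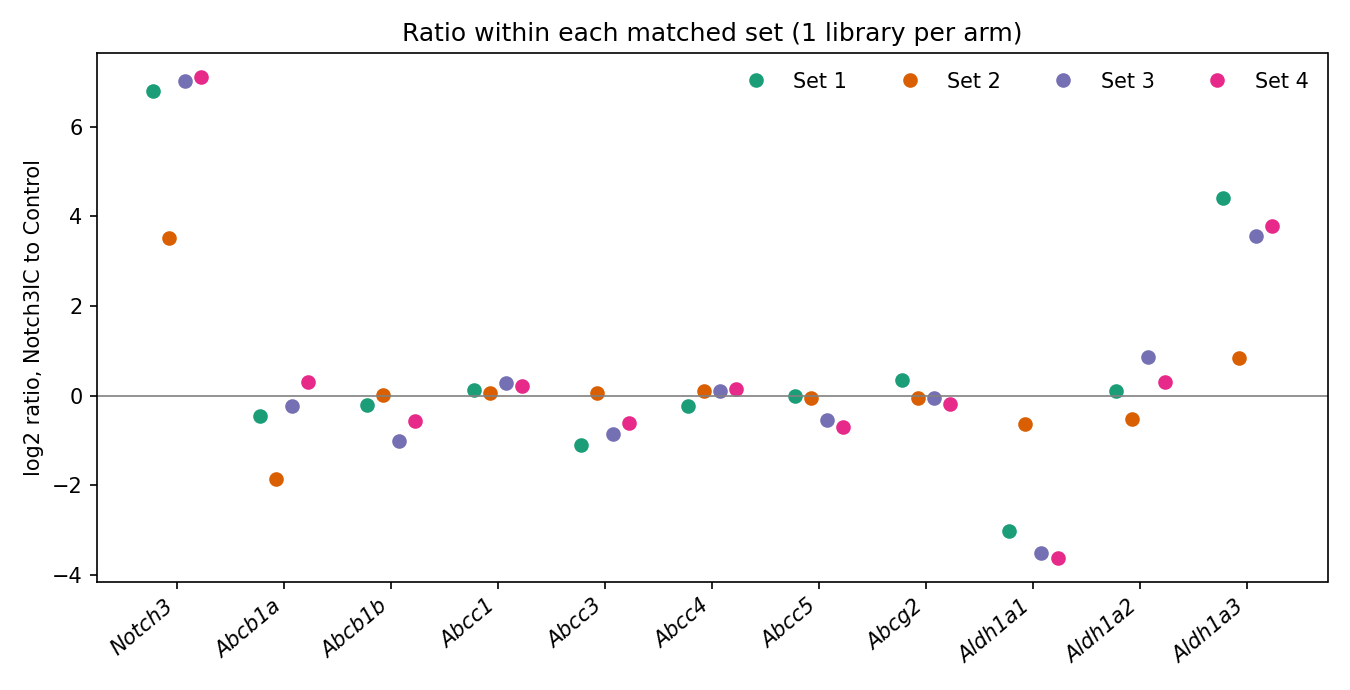
Log2 ratio of the Notch3IC to the Control library within each set, for Notch3 and the 10 genes, with 1 point per set. Set 2 lies nearest to 0 for Notch3 (3.51), Aldh1a1 (-0.63) and Aldh1a3 (0.85). It does so too for Abcb1b (0.02), Abcc1 (0.06), Abcc3 (0.06) and Abcc4 (0.10), and most transporter points lie within 1 unit of 0.

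P-glycoprotein, the pump for taxanes and anthracyclines that a single gene encodes in humans, is encoded in mice by Abcb1a and Abcb1b, neighbours on chromosome 5 whose annotated spans are 49.6 kb apart. Abcb1b (chromosome 5, 8798147 to 8866315, plus strand) was the more abundant, at 1155, 609, 597 and 695 normalized counts in Control and 1008, 618, 294 and 469 in Notch3IC. Its log2 fold change was -0.36 (SE 0.37, adjusted p = 0.679, edgeR quasi-likelihood test), with ratios of -0.20, 0.02, -1.02 and -0.57 in Sets 1 to 4. The 95% interval ran from -1.21 to 0.49 with condition alone and from -0.86 to -0.01 with the block, where the adjusted p was 0.136. Abcb1a (chromosome 5, 8660077 to 8748575, plus strand) was scarce, at 70.4, 50.1, 32.5 and 27.7 normalized counts in Control and 51.4, 13.2, 27.6 and 34.6 in Notch3IC. Control and Notch3IC overlapped for both genes. The log2 fold change of Abcb1a was -0.50 (SE 0.45, adjusted p = 0.620), and its lowest library was Notch3IC Set 2. The counts of this pair are uncertain where reads cannot tell the copies apart: of all 100-base stretches, the length of a read, 8.51% in the longest coding transcript of Abcb1a and 8.89% in that of Abcb1b also occur in a transcript of another gene, mostly of the partner. Exons of Gm42686 on the opposite strand also overlap 10.09% of the Abcb1a exon bases, and use of strand in counting is not given in the sources used here.

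Abcc1 (chromosome 16, 14361558 to 14475737, plus strand) encodes the multidrug resistance-associated protein that exports glutathione conjugates and anthracyclines. It stood at 5895, 3979, 4137 and 4002 normalized counts in Control and 6457, 4150, 5027 and 4631 in Notch3IC. The Notch3IC line was the higher in all 4 sets, by log2 ratios of 0.13, 0.06, 0.28 and 0.21, but the groups overlapped because both lines of Set 1 were high. The log2 fold change was 0.17 with condition alone (SE 0.18, adjusted p = 0.681, edgeR quasi-likelihood test) and with the block (SE 0.06, adjusted p = 0.101), and neither fit called it. The 95% interval, from -0.24 to 0.58 with condition alone and from 0.03 to 0.32 with the block, held no change as large as the limit for a call.

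Abcc3, Abcc4 and Abcc5 encode exporters of organic anions, Abcc3 of glucuronides and bile acids and Abcc4 and Abcc5 of cyclic nucleotides and nucleotide analogues. Abcc3 (chromosome 11, 94343295 to 94392997, minus strand) stood at 7.93, 86.0, 58.4 and 71.4 normalized counts in Control, against 3.36, 89.4, 32.2 and 46.5 in Notch3IC. It had a log2 fold change of -0.40 (SE 0.85, adjusted p = 0.859, edgeR quasi-likelihood test). Both lines of Set 1 were nearly without it, at 8 and 3 reads. The size rested on single libraries, at -0.02 without Notch3IC Set 1 and -1.01 without Notch3IC Set 2, and neither was called. Abcc4 (chromosome 14, 118482692 to 118706219, minus strand) stood at 1371, 1128, 869 and 1059 in Control, against 1179, 1207, 937 and 1182 in Notch3IC. It had a log2 fold change of 0.02 (SE 0.15, adjusted p = 0.959). Its 95% interval from -0.32 to 0.37 was among the narrowest of the 10. The groups overlapped for Abcc3 and Abcc4 alike.

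Abcc5 (chromosome 16, 20331303 to 20426394, minus strand) stood at 1957, 2218, 2886 and 3481 normalized counts in Control and 1957, 2128, 1974 and 2155 in Notch3IC. The Notch3IC lines were close to each other, while the Control lines of Sets 2, 3 and 4 stood above every Notch3IC line and that of Set 1 equalled its partner. The log2 fold change was -0.36 (SE 0.17, adjusted p = 0.314, edgeR quasi-likelihood test), and with the block it was -0.33 (SE 0.13, adjusted p = 0.141). The 95% interval ran from -0.75 to 0.03 with condition alone and from -0.65 to -0.002 with the block.

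Abcg2 (chromosome 6, 58584523 to 58695676, plus strand), the breast cancer resistance protein whose activity marks the dye-excluding side population, stood at 1544, 1391, 2007 and 1857 normalized counts in Control and 1973, 1348, 1953 and 1629 in Notch3IC. The 2 groups had nearly the same mean, 1700 ± 282 and 1726 ± 297 (SD, n = 4). The log2 fold change was 0.02 (SE 0.16, adjusted p = 0.966, edgeR quasi-likelihood test), with a 95% interval from -0.34 to 0.39. The ratio was above 0 in Set 1 and below 0 in Sets 2, 3 and 4.

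**Figure D3:**
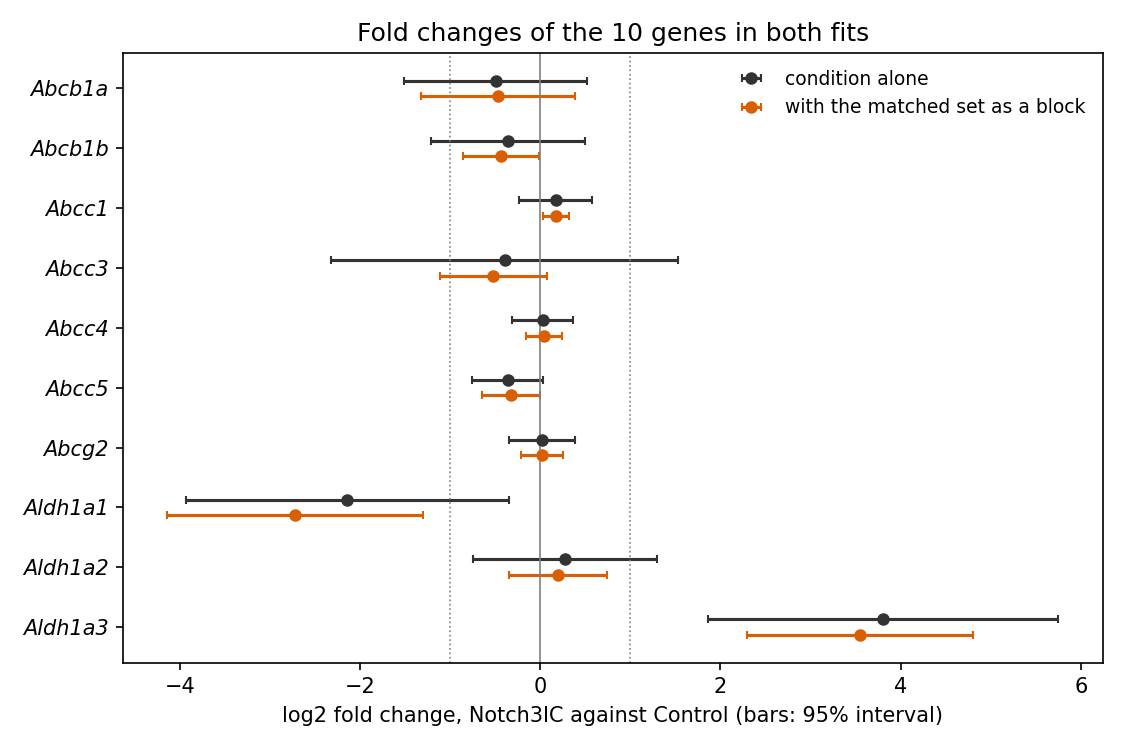
Log2 fold change of the 10 genes, Notch3IC against Control, with approximate 95% intervals from the edgeR fit with condition alone (dark) and from the blocked fit (orange), and dotted lines at the limit of 1 for a call. The intervals of Aldh1a1 and Aldh1a3 lie off 0 in both fits, and those of Abcc1, Abcc4, Abcc5 and Abcg2 lie within 1 of 0.

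For most of the 10 genes the lines differed more between sets than between conditions. The sum of squares of log2(CPM + 0.1) was split into a part between sets, a part between conditions and the rest, as a description in which 4 sets have more room than 2 conditions. The part between sets was 94.4% for Abcc3, 85.7% for Abcc1, 85.0% for Abcc4, 84.9% for Aldh1a2, 78.3% for Abcg2 and 73.5% for Abcb1b. For Abcb1a and Abcc5 it was 47.6% and 39.4%, with parts between conditions of 17.2% and 32.7%. Because sets have more room, these shares do not show that Abcb1a and Abcc5 differed more between sets. Only for Aldh1a1 and Aldh1a3 was the part between conditions the larger, at 60.8% and 63.1% against 26.9% and 24.2% between sets. Set 1 stood apart in both of its lines: each had more Abcc1 and Abcb1b, and less Abcc3 and Aldh1a2, than any library of Sets 2 to 4. Within Set 1 alone the Notch3IC line still had the lower Aldh1a1 and the higher Aldh1a3.

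Levels were compared between genes as CPM per kb of the longest coding transcript in GENCODE M21. In Control cells Aldh1a1 had the highest mean level, 74.1 ± 33.4 CPM per kb (SD, n = 4), and Aldh1a3 the lowest, 0.135 ± 0.0585. Between them the order was Abcc1 (28.4 ± 5.87), Aldh1a2 (22.6 ± 8.65), Abcc5 (19.4 ± 5.06), Abcg2 (12.7 ± 2.12), Abcc4 (8.30 ± 1.56), Abcb1b (7.60 ± 2.63), Abcc3 (0.479 ± 0.290) and Abcb1a (0.388 ± 0.166). Neighbours in this order overlapped between libraries except at 3 steps, from Abcg2 to Abcc4, from Abcb1b to Abcc3 and from Abcb1a to Aldh1a3. In Notch3IC cells Abcc1 had the highest mean at 32.0 ± 6.27, Aldh1a2 was next at 27.4 ± 15.7, Aldh1a1 followed at 16.9 ± 20.4, and Aldh1a3 was at 1.89 ± 1.90, above only Abcc3 and Abcb1a. There the only step without overlap was from Abcg2 to Abcc4. The place of Aldh1a1 rested on Set 2: without that library its mean was 6.76 ± 3.03 (SD, n = 3), below Abcc5, Abcg2 and Abcc4. In Notch3IC Set 1 the level of Aldh1a3 per length was above that of Aldh1a1, 4.58 against 3.70 CPM per kb, and in Sets 2, 3 and 4 it was below. With the union of all annotated exons as the length, Aldh1a2 (22.6 ± 8.65) came before Abcc1 (12.8 ± 2.64) in Control and Abcg2 overlapped Abcc4. On that length the highest mean in Notch3IC cells was that of Aldh1a2, Abcc1 was next, and Aldh1a1 came after Abcg2 and Abcc5.

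**Figure D4:**
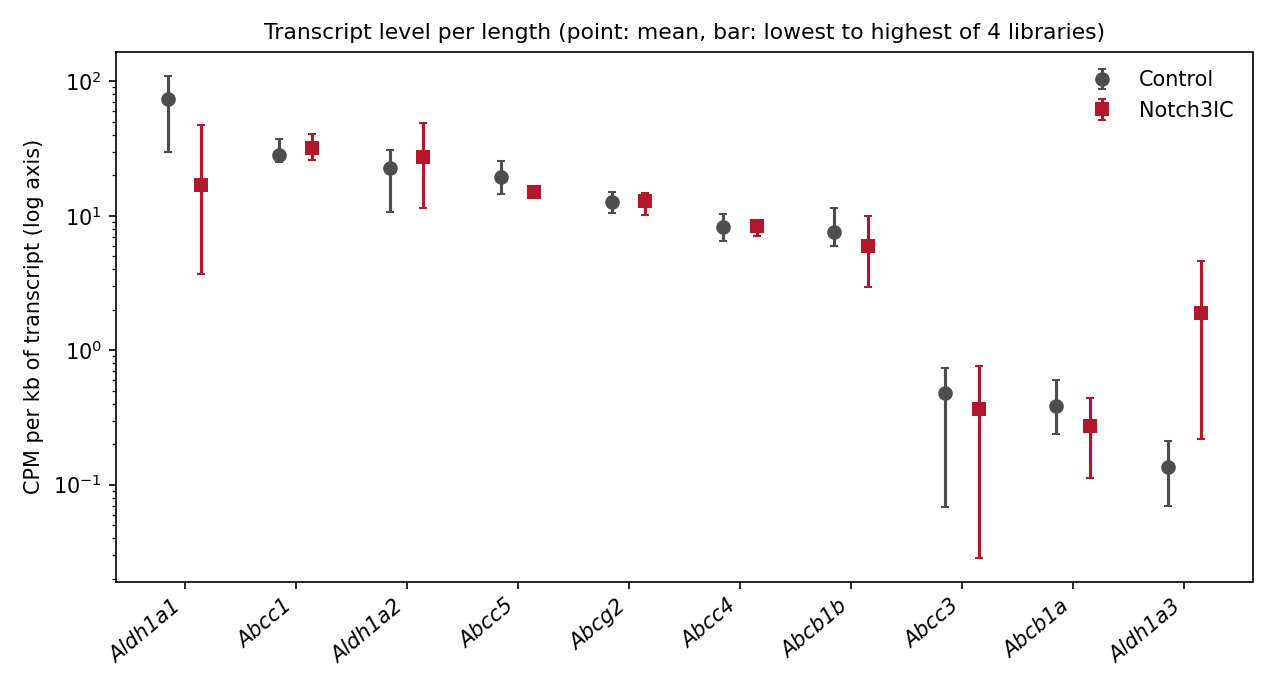
CPM per kb of the longest coding transcript (log axis) for the 10 genes in order of their Control mean, with points at the mean and bars from the lowest to the highest of 4 libraries. Abcc3, Abcb1a and Aldh1a3 lie far below the rest in Control, and the Notch3IC range of Aldh1a1 reaches from 3.70 to 47.2.

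The remaining ABC transporters, which carry lipids, sterols, peptides and metals as well as drugs, numbered 39 listed genes, of which 21 were tested, 3 were called higher and none lower with condition alone. With the block 5 were called higher and none lower. Over all genes tested, 3.4% were called higher and 0.74% lower with condition alone, and 5.19% and 2.53% with the block. The same shares apply to the lists that follow. Groups did not overlap for 4 of the 21, higher in Notch3IC, and for 1, lower, against 7.08% and 3.75% of all genes. The median log2 fold change of the 21 was -0.04, against -0.01 over all genes. Abca8a, a lipid transporter with at most 2 reads in any Control library, had 67, 24, 1205 and 1097 reads in Notch3IC Sets 1 to 4, at least 182-fold higher on average against a floor of 3 reads per library. Abcd2, a peroxisomal importer of very long-chain fatty acids, rose from 18.3 ± 8.08 normalized counts in Control to 67.3 ± 40.1 in Notch3IC (log2 fold change 1.89, adjusted p = 0.0886, edgeR quasi-likelihood test), and Abcg4, a sterol exporter, from 10.6 ± 3.15 to 31.7 ± 7.55 (1.59, adjusted p = 0.0399). None of these is among the classical drug pumps. The most abundant gene of the list was Abcd3, another peroxisomal importer, at 2850 ± 192 and 2511 ± 118. Chosen after its values were seen, Abca3, the surfactant lipid transporter, had a log2 fold change of -0.82 with adjusted p = 0.0426, under the size needed for a call. Abca5, chosen in the same way, had a log2 fold change of 0.89 with adjusted p = 0.0786. Its groups did not overlap, and it too was under the size needed.

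Among the 17 other aldehyde dehydrogenases listed, 15 were tested and 1 was called, higher, with condition alone. Their median log2 fold change was 0.07. Aldh1l2, the mitochondrial enzyme of folate metabolism, rose from 672 ± 174 normalized counts in Control to 1804 ± 842 in Notch3IC (log2 fold change 1.42, adjusted p = 0.0631, edgeR quasi-likelihood test). The most abundant was Aldh18a1, of proline synthesis, at 7347 ± 860 in Control and 8292 ± 1527 in Notch3IC. With the block, Aldh3a1 was called higher besides Aldh1l2, and Aldh1a7 was called lower (log2 fold change -1.12, adjusted p = 0.0430). Aldh1a7, a close relative of Aldh1a1 on the opposite strand 49.5 kb from it, was at 31.6 ± 18.4 in Control and 15.5 ± 12.6 in Notch3IC and was named after its values were seen. Only 0.04% of the 100-base stretches of Aldh1a1 occur in another gene, Aldh1a7.

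The retinoid list of 27 genes covers retinol uptake, oxidation, binding proteins, Cyp26 degradation and the nuclear receptors. Of these 17 were tested, 1 was called higher and none lower, and the median log2 fold change was 0.07. Adh7, an alcohol dehydrogenase that oxidizes retinol, stood at 129, 389, 81.4 and 148 normalized counts in Control and 676, 544, 521 and 662 in Notch3IC. Its groups did not overlap, and its log2 fold change was 1.69 (SE 0.43, adjusted p = 0.0758, edgeR quasi-likelihood test). The most abundant gene was the receptor Rarg, at 2401 ± 148 and 2687 ± 261, which was not called. Crabp1 and Rxrg had no read in any library. Among genes that respond to retinoic acid, named after their values were seen, Cyp26b1 (log2 fold change 0.78, adjusted p = 0.418) and Rarb (-0.07, adjusted p = 0.973) were not called. Cyp26a1 and Cyp26c1, of the same degrading family, had too few reads to be tested: Cyp26a1 had 2, 1, 8 and 7 reads in Control and 2, 3, 18 and 33 in Notch3IC, and Cyp26c1 had none in Control and 1, 0, 7 and 4 in Notch3IC. Dhrs3 (-0.62, adjusted p = 0.784) and Stra6 (-0.19, adjusted p = 0.937), of the same list, were not called either. Of the 17 retinoid genes tested, 10 had a log2 fold change above 0 and 7 below.

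The glutathione and Nrf2 list holds 28 genes, among them the glutathione transferases, which conjugate drugs that Abcc pumps can export, and genes of glutathione synthesis, peroxide removal and the Nrf2 response. Of these 25 were tested and none was called with condition alone, with a median log2 fold change of -0.06. The most abundant was Txnrd1, a thioredoxin reductase, at 9760 ± 2099 and 9376 ± 2850 normalized counts. With the block the glutathione transferases Gsta3, Gstm1 and Gstt1 were called higher, at 1.93, 1.05 and 1.74 on the log2 scale (adjusted p = 0.0625, 0.0557 and 0.0569). Gclm, the modifier subunit of the enzyme that starts glutathione synthesis, was named after its values were seen. It was at 3276 ± 367 in Control and 1950 ± 458 in Notch3IC, with groups that did not overlap, and its log2 fold change of -0.75 (adjusted p = 0.0502) was under the size needed for a call. Of 10 platinum and cation carriers 4 were tested and none was called in either fit, and the most abundant was the copper importer Slc31a1, at 2218 ± 362 and 2545 ± 295. Of 9 regulators of xenobiotic genes 6 were tested and none was called in either fit, with Hif1a the most abundant at 12687 ± 2512 and 11344 ± 2024.

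By Pearson correlation of log2 CPM over the 8 libraries, the genes whose pattern was most like that of Aldh1a3 were Glis3 (r = 0.992), a zinc finger transcription factor, Rasgrp3 (r = 0.992), an exchange factor for Ras proteins, and Cbfa2t2 (r = 0.989), a transcriptional corepressor. The libraries share their sets and conditions, so these values only describe likeness. Glis3 went from 352 ± 78.7 to 1220 ± 643 normalized counts and Rasgrp3 from 24.8 ± 5.72 to 293 ± 286, and both were called higher. Cbfa2t2, at 1325 ± 38.1 and 1496 ± 107, was not.

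The labelled origin, ovarian surface epithelium, was checked with 10 markers of that epithelium and of mesothelium, and none of the 10 was at 0 in any library. Krt7 was scarce and was not tested, with 5, 2, 46 and 7 reads in Control and 1, 1, 2 and 2 in Notch3IC. The summed level of the 10 markers was 1307, 1993, 3021 and 2911 CPM in Control, against 689, 1363, 1330 and 1092 CPM in Notch3IC, lower in the Notch3IC line of every set. Of the 9 tested, 7 had a log2 fold change below 0. The 2 above 0 were Cdh2 and Lhx9, named after their values were seen. Msln, which encodes mesothelin, was called lower, from 2349 ± 1152 to 389 ± 290 normalized counts (log2 fold change -2.60, adjusted p = 0.0625, edgeR quasi-likelihood test). With the block 3 were called lower, Msln, the keratin gene Krt19 and Upk3b, the most abundant of the list by its mean over all 8 libraries. The log2 ratios of Msln in Sets 1 to 4, -3.84, -1.02, -3.26 and -3.25, were smallest in Set 2, as were those of Aldh1a1. Fewer cells of a kind and less RNA per cell cannot be told apart in such bulk libraries, and the part of these markers in the Aldh1a1 result was not tested. The 7 leukocyte markers listed summed to between 2.42 and 5.47 CPM, led on average by Cd68, with at most 2 reads of the pan-leukocyte gene Ptprc in any library. Of the 2 tested, Csf1r was called higher (6.70 to 11.9 normalized counts in Control and 14.7 to 40.3 in Notch3IC). Cd68, at 80.8 ± 29.3 in Control and 61.1 ± 21.4 in Notch3IC, was lower in the Notch3IC line of every set and was not called. The 6 endothelial markers summed to between 0.544 and 2.16 CPM, led on average by Pecam1, and none was called. Of 6 fibroblast and mural markers, summing to between 144 and 989 CPM with Pdgfra the most abundant by its mean over all 8 libraries, Pdgfrb was called higher, from 90.6 ± 82.0 to 5643 ± 3587 normalized counts. Of the 3 tested, 2 had a log2 fold change above 0 and 1, Dcn, below. Dcn, named after its values were seen, was at 5906 ± 3428 in Control and 4276 ± 2572 in Notch3IC. It was lower in the Notch3IC line of every set and was not called in either fit. The 5 columnar epithelial markers summed to between 4.65 and 32.5 CPM, led on average by Cdh1, and none was called. How far the fibroblast and mural markers bear on the Aldh1a results was not tested.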

How the data were processed

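Single-end sequencing of polyadenylated RNA was done on each line. The authors deposited a table for each library that holds raw read counts by gene symbol, not normalized. The submitters' processing notes name TopHat, Cufflinks, DESeq and mm9, and the annotation and strandedness are not given in the sources used here. Cell lines of separate infections are the replicates. The members and lists were chosen with earlier results of these data known.

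Notch3IC was compared with Control in edgeR 4.0.16 (R 4.3.3) with TMM normalization, filterByExpr by condition and a robust quasi-likelihood F test with condition alone, over 12430 of 23284 genes, with Benjamini-Hochberg adjustment. Standard errors are the log2 fold change divided by the square root of F, and the approximate 95% intervals use them with the degrees of freedom of the fit. Within-set ratios used a pseudocount of 0.5. With 4 libraries a group, the biological coefficient of variation was 26.3% (14.1% with the block). The sets are matched lines by the study's methods, and deviations of same-set libraries from their group means correlated at 0.80, 0.40, 0.57 and 0.41, against -0.50 to 0.37 for crossed pairs. Of 28 pairs of libraries none was a duplicate: at most 0.442% of genes with over 100 reads had equal counts. Alternatives were DESeq2 1.42.0, RLE, upper-quartile and library-total scaling, other filters and thresholds, the block, and leaving out each library or set. The block with a set left out, the exon union as length and levels without Set 2 were chosen after the data were seen. The fits were tested on simulated data with the same dispersion for all genes and no difference between sets. That run therefore does not show how either fit behaves with the set differences of these libraries.

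All 10 members and the 5 genes of the manipulation check were named. From each other list the called genes, up to 4, and the most abundant gene were named, and for likeness the 3 genes with the highest correlation. Positions are GENCODE M21 on GRCm38 and promoters are RefSeq on GRCm38.p6. The count tables hold no coordinates. Figures were drawn with Matplotlib 3.10.9.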

Additional observations from a re-analysis of the deposited data

Results flagged for a closer look

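In 5 of 32 groups of 4 libraries searched, 1 library stood apart from the other three by Dixon's criterion, where chance gives about 1 in 20 groups, or 1.6. Aldh1a1 in Notch3IC Set 2 stood at 2595 normalized counts, where the remaining Notch3IC lines held 204 to 537. The same line had the least Notch3 transcript of the Notch3IC lines, 467 against 4322 to 9220. Abcc1 in Control Set 1 was at 5895 normalized counts, against 3979 to 4137 in the other Control lines. Abcc4 in Notch3IC Set 3 was at 937, against 1179 to 1207. Notch3 in Control Set 3 was at 70.8, against 38.7 to 42.0. Hes1 in Notch3IC Set 1 was at 1227, against 509 to 549. What sets these libraries apart was not tested.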

How the results depend on the processing

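The 7 transporters and Aldh1a2 were called under none of the alternatives. With the block without Set 2, Abcb1b (-0.58, adjusted p = 0.0389), Abcc1 (0.21, 0.0433), Abcc3 (-0.77, 0.0468), Abcc5 (-0.42, 0.0675) and Aldh1a2 (0.44, 0.0761) passed the threshold on p and missed the call on size alone. Aldh1a3 stayed above 0 and Aldh1a1 below 0 in all alternatives in which they were tested. Aldh1a1 was called lower, as the 1 gene of the 10 in that direction, with DESeq2 (log2 fold change -2.15, adjusted p = 0.0890), with the replicate block (-2.72), without Notch3IC Set 2 (-3.45), without both lines of Set 2 (-3.46, adjusted p = 0.0198) and with the block without Set 2 (-3.40, adjusted p = 0.000105). It was not called with the block without Set 1 (adjusted p = 0.148), Set 3 (0.186) or Set 4 (0.196). Counts of the 10 genes called ranged from 0 to 1 in each direction over the fits that left out a library or a set. Aldh1a3 was not called, leaving 0 genes called higher, without Set 3 (adjusted p = 0.327) or Set 4 (0.371), with the block without Set 1 (0.126), Set 3 (0.132) or Set 4 (0.121), and without the single libraries given above. Asking for 10 counts or more in all libraries removed it from the test, again leaving 0. The replicate block changed no other call among the 10.

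Values near 0 turned sign. Abcc4 was at -0.00231 and Abcg2 at -0.0226 on the log2 scale with library totals. Leaving out a library or a set gave -0.0768 to 0.143 for Abcc4, -0.0953 to 0.121 for Abcg2, and -0.159 (without Notch3IC Set 3) to 0.557 (without Set 2) for Aldh1a2. With the block and a set left out these reached -0.00097 for Abcc4, -0.0958 for Abcg2 and -0.0343 for Aldh1a2. The cause was not tested. Leaving out 1 library gave -0.802 to -0.196 for Abcb1a, -0.730 to -0.0892 for Abcb1b, 0.0385 to 0.326 for Abcc1, -1.01 to -0.0185 for Abcc3 and -0.480 to -0.199 for Abcc5.

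Over all genes, 423 were called higher and 92 lower. DESeq2 called 707 and 192, and the replicate block 645 and 315. An adjusted p under 0.05 left 48 lower, and 210 were lower with no limit on fold change. Leaving out a library or a set gave 0 to 702 higher and 0 to 305 lower, both 0 without Set 4 and 1 and 0 without Set 3, fits in which 1011 and 1101 genes had an unadjusted p under 0.05. With the block and Set 1, 2, 3 or 4 left out, 46, 904, 59 and 129 were called higher and 23, 426, 22 and 30 lower.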
